A study of Mus musculus with 8 samples.

Results

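The microRNAs (miRNAs) described here are those usually read as marks of muscle and connective tissue, namely miR-1, miR-133, miR-206 and miR-499 of striated muscle and miR-143 and miR-145 of smooth muscle and stroma. They were taken by name, as every row of the miRNA class of the deposited count table named miR-1, miR-133, miR-206, miR-499, miR-143 or miR-145 with any letter, copy or arm. The rule found 16 of the table's 952 miRNA rows, 11 for mature arms and 5 for precursors. There were 5 rows for miR-1, 5 for miR-133, 2 for miR-143, 2 for miR-145 and 2 for miR-499. No row matched miR-206, which is not analysed here.

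The libraries are small RNA from sperm of C57BL/6J mice, 4 labelled Control-Cessation and 4 labelled EtOH-Cessation, called control and EtOH below. The title places the study after a month without alcohol, and the comparison is between treated and untreated animals after that pause. Dose, route, age and length of treatment are not given in the labels. Nor is it stated there that every library stems from a different animal, so the p-values measure only the spread between these libraries, which may be technical. The labels give mature sperm as the cell type, while the design text names the caput, the first stretch of the epididymis. Summed counts ran from 4210785 to 4768713 in the controls and from 3116421 to 6805989 in EtOH libraries. The miRNA class held 16.8% to 27.7% of the counts in the controls and 6.96% to 10.1% in the EtOH libraries, and a fit within that class is given below. Transcripts of late sperm precursors, among them protamines and tail proteins, were present in all libraries, with 564 to 670 CPM per library total (counts divided by the library's summed count and brought to a fixed total) in the controls and 357 to 523 in EtOH libraries. Transcripts of the epididymal lining were also present, at 363 to 506 CPM per library total in the controls and 736 to 17741 in EtOH libraries, and their part in the results below was not tested.

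A miRNA is cut from a hairpin precursor into a short guide that leads Argonaute proteins to messenger RNAs, chosen mostly through the seed near the guide's 5′ end. The genes for miR-1 and miR-133 lie side by side and are transcribed together in heart and skeletal muscle under factors such as SRF, MEF2 and MyoD, and miR-499 is made from an intron of a myosin heavy chain gene. miR-143 and miR-145 come from a common transcript that SRF and myocardin switch on in smooth muscle, and fibroblasts make them as well. The epididymal duct is wrapped in smooth muscle and stroma, and the mature sperm cell itself has neither.

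A search by name in the RefSeq miRNA table (GRCm38.p6) kept 3 of the 11 mature arms. The search did not cover every chromosome, so an arm missing here is not shown to be absent from RefSeq. The abundant arms miR-143-3p, miR-145a-5p, miR-1a-3p and miR-133a-3p are not among the 3, so the range of seeds over the group is not shown. The 3 are printed with bases 2 to 8 from the 5′ end, the seed, in capitals.
miR-133b-3p: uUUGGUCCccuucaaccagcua
miR-499-5p: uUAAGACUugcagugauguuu
miR-1a-1-5p: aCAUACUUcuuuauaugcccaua
No 2 of these 3 share a seed. In GRCm38.p6, miR-133b-3p lies at chr1:20682834-20682855 on the plus strand, inside an exon of the long noncoding RNA Gm28653 in GENCODE, miR-499-5p at chr2:155622893-155622913 on the plus strand, inside an intron of Myh7b on the same strand, and miR-1a-1-5p at chr2:180389057-180389079 on the plus strand, where Mir1a-1 is annotated. miR-133a-3p and miR-133b-3p are nearly identical, so reads of 1 can be counted under the other, and their split in the table is uncertain.

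Most of the signal came from a few mature arms. A mean of at least 10 counts per library was reached by 6 rows, miR-143-3p, miR-145a-5p, miR-1a-3p, miR-133a-3p, miR-145a-3p and miR-499-5p, and the same 6 passed the abundance filter of the test. The other 10 rows never exceeded 15 counts in a library and held 71 counts over all controls and 31 over all EtOH libraries. miR-143-3p alone was 66.2% to 80.2% of the counts of the whole group in each library, and miR-143 and miR-145 together 81.6% to 92.4%. The order of counts, miR-143-3p above miR-145a-5p above miR-1a-3p above miR-133a-3p, was the same in 8 of 8 libraries. Whether the order of counts is also that of the amounts of these miRNAs was not tested.

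miR-143-3p, a smooth muscle and fibroblast miRNA known to restrain the transcription factor Elk1, had 4758, 32549, 1699 and 7068 CPM in control replicates 1 to 4. For single features, here and below, CPM refer to library sizes after filtering that were rescaled by TMM (trimmed mean of M values). In EtOH replicates 1 to 4 it had 2949.7, 1115, 3293 and 2048. Control replicate 2 stood far above all other libraries, control replicate 3 lay inside the EtOH range, and the groups overlapped. Its rank by counts among the miRNA rows was 10, 2, 26 and 5 in the controls and 7, 14, 7 and 8 in EtOH libraries. The mean was 11518 ± 14192 CPM in controls and 2351 ± 977 in EtOH libraries (SD, n = 4 each), with a log2 fold change of -2.29 (SE 0.74) and an adjusted p of 0.0768 in edgeR's quasi-likelihood test with Benjamini-Hochberg adjustment over all 10234 features tested. It did not pass the adjusted threshold of 0.05.

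miR-145a-5p, transcribed with miR-143 and known as a promoter of the contractile state of smooth muscle, had 1109, 10338, 318 and 1034 CPM in the controls, against 367, 354, 503 and 613 under EtOH. The pattern was that of its partner, with control replicate 2 highest by a wide margin and control replicate 3 below every EtOH library. The means were 3199.7 ± 4772 and 459 ± 122 CPM (SD, n = 4 each), the log2 fold change was -2.80 (SE 0.86) and the adjusted p 0.0654 by edgeR.

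The other arm, miR-145a-3p, is usually the minor product of its hairpin. It had 0, 589, 0 and 44 counts in the controls and 0, 11, 0 and 14 in EtOH libraries. The zeros fall in libraries with 1131 to 4205 counts of the 5p arm, where the lowest share of 3p to 5p counts seen elsewhere, 0.441%, would give 4.99 to 18.5 counts. A count of 0 allows a share of up to 0.0713% in control replicate 1, 0.265% in control replicate 3, 0.127% in EtOH replicate 1 and 0.0903% in EtOH replicate 3, for counting error only. These limits hold only if the arm was counted alike in all libraries, which was not tested. An abundant germ-line miRNA outside the group, miR-34b-3p, was also listed at 0 in control replicate 1, with 4510, 4266 and 2827 CPM in control replicates 2 to 4. The fitted log2 fold change of miR-145a-3p, -5.08 (SE 1.85, edgeR adjusted p = 0.103), rests on 1 library and on its zeros.

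miR-1a-3p, the principal striated muscle miRNA, had 909, 3292, 255 and 552 CPM in the controls and 324, 102, 232 and 191 in EtOH libraries. In 3 of the 4 EtOH libraries it was below every control, and EtOH replicate 1 was above control replicate 3 alone. The means were 1252 ± 1386 and 212 ± 92.2 CPM (SD, n = 4 each), with a log2 fold change of -2.56 (SE 0.69, edgeR adjusted p = 0.0533).

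miR-133a-3p, made from the same transcripts as miR-1 and known to repress the muscle transcription factor SRF, had 405, 1058, 126.4 and 256 CPM in the controls and 90.5, 45.7, 75.3 and 138 in EtOH libraries. Again 3 EtOH libraries were below every control, and EtOH replicate 4 exceeded control replicate 3. The means were 461 ± 414 and 87.4 ± 38.5 CPM (SD, n = 4 each), with a log2 fold change of -2.40 (SE 0.61, edgeR adjusted p = 0.0525).

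miR-499-5p, the miRNA of the Myh7b intron shown above and a mark of slow muscle and heart, was scarce. Its counts were 19, 38, 17 and 12 in the controls and 5, 2, 10 and 3 in EtOH libraries, which is 5.01, 11.6, 4.78 and 2.95 CPM against 0.780, 0.606, 1.51 and 0.579. It was the only one of the 6 whose groups did not overlap, which held for 7.81% of all features tested and 48.7% of the 228 miRNA features tested in the downward direction. The means were 6.09 ± 3.81 and 0.870 ± 0.439 CPM (SD, n = 4 each), with a log2 fold change of -2.70 (SE 0.52, edgeR adjusted p = 0.0525).

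**Figure D1:**
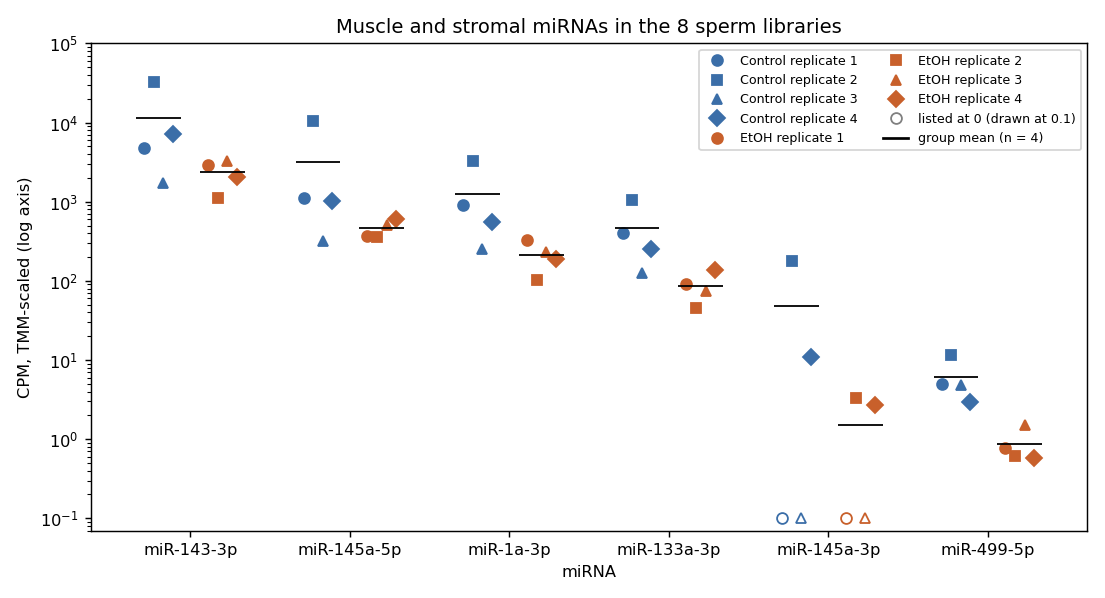
CPM (TMM-scaled, log axis) of the 6 muscle and stromal miRNAs that were tested, in each of the 4 control and 4 EtOH libraries, with bars at the group means and open symbols for libraries listed at 0. Control replicate 2 is the highest library for all 6, from 32549 CPM for miR-143-3p to 11.6 for miR-499-5p, and only the groups of miR-499-5p do not overlap.

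All 6 tested muscle and stromal miRNAs had negative fold changes, none passed the adjusted threshold, and miRNAs at large had negative fold changes too. By edgeR, 0 of the 6 tested passed at an adjusted p below 0.05, against 0.137% of all features that did so in the downward direction and 0.439% of miRNA features, and none was called higher, against 0.0489% of all features. At an unadjusted p below 0.05, 6 of 6 were lower, beside 9.15% of all features and 66.7% of miRNA features. DESeq2 gave 5 of 6 lower at its adjusted threshold, all but miR-145a-3p, for which it gives no adjusted p, beside 3.95% of all features and 51.3% of miRNA features. Limma voom with quality weights gave 0 of 6, beside 2.34% and 32.5%. The median log2 fold change of the 6 was -2.63, against -1.56 over the 228 miRNA features and -0.09 over all 10234 features. The number of the 228 with a more negative fold change was 0 for miR-145a-3p, 5 for miR-145a-5p, 7 for miR-499-5p, 11 for miR-1a-3p, 17 for miR-133a-3p and 22 for miR-143-3p. The labels of the EtOH libraries carry 2 forms of identifier, and against all 4 controls the median was -3.04 for replicates 1 and 2 and -2.29 for replicates 3 and 4. With replicates 1 and 2 alone miR-133a-3p and miR-499-5p passed, beside 2.69% of all features and 38.8% of miRNA features called lower, and with replicates 3 and 4 alone 0 passed. Within either form no control exists, so form and treatment cannot be told apart there.

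**Figure D2:**
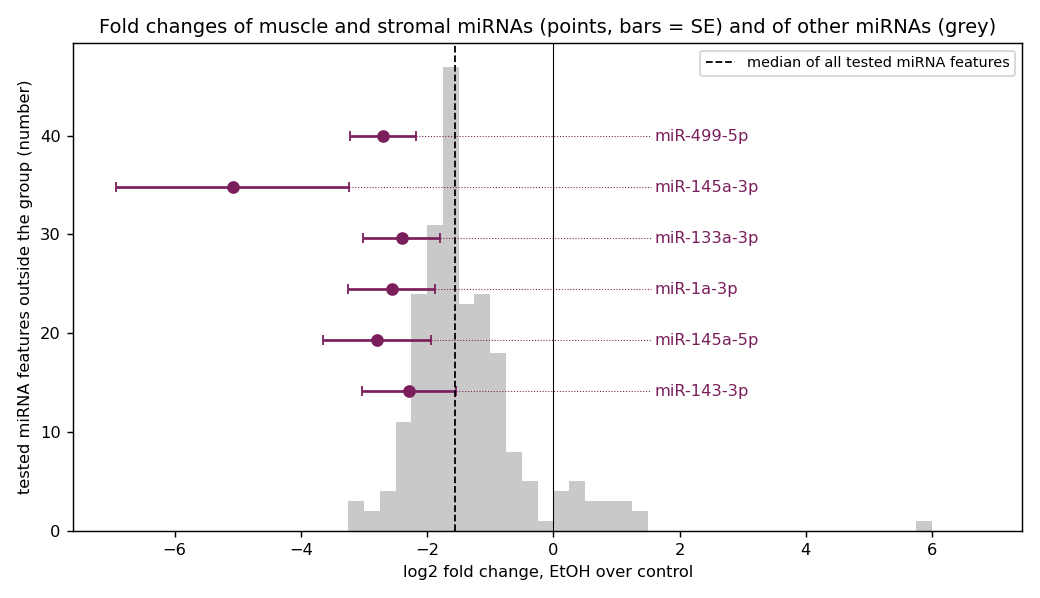
Log2 fold change, EtOH over control, of the 6 tested muscle and stromal miRNAs (points, with bars of 1 SE, spread vertically for legibility only) over a histogram of the other tested miRNA features, whose number is on the vertical axis. The dashed line marks the median of all 228 tested miRNA features at -1.56, and all 6 points lie to its left.

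The differences shrank without control replicate 2. In that library miR-145a-5p was 10.002 times the median of the other 3 controls, miR-143-3p 6.84 times, miR-1a-3p 5.97 times, miR-133a-3p 4.13 times and miR-499-5p 2.44 times. Over all tested miRNA features for which this ratio exists its median was 1.98, and these 5 stood, from the top, at ranks 3, 8, 14, 29 and 78. Without that library the log2 fold changes were -0.91 for miR-145a-5p (edgeR adjusted p = 0.292), -0.99 for miR-143-3p (0.297), -1.48 for miR-1a-3p (0.124), -1.65 for miR-133a-3p (0.101), -2.24 for miR-499-5p (0.0952) and -1.57 for miR-145a-3p (0.493). Their median was then -1.53, beside -1.24 over miRNA features, and 0 of 6 passed, beside 0.0711% of all features called lower. The striated muscle miRNAs thus kept more of their difference than miR-143 and miR-145, but the contrast between them was not tested. The control means without it were 4508 ± 2693 CPM for miR-143-3p, 820.1 ± 437 for miR-145a-5p, 572 ± 327 for miR-1a-3p, 262 ± 139 for miR-133a-3p and 4.24 ± 1.13 for miR-499-5p (SD, n = 3 each).

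The EtOH side also bore on the calls. Without EtOH replicate 3, 5 of 6 passed the adjusted threshold (all but miR-145a-3p, edgeR adjusted p from 0.00883 to 0.0419), beside 3.63% of all features called lower and 58.2% of miRNA features. Without EtOH replicate 2, miR-133a-3p and miR-499-5p passed, beside 1.83% and 26.9%. With no filter on low counts miR-499-5p and miR-145a-3p passed, beside 0.0203% and 2.95%. In the fits without EtOH replicate 2 or 3, and with replicates 1 and 2 alone, a larger share of the whole table was called lower than with all libraries.

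**Figure D3:**
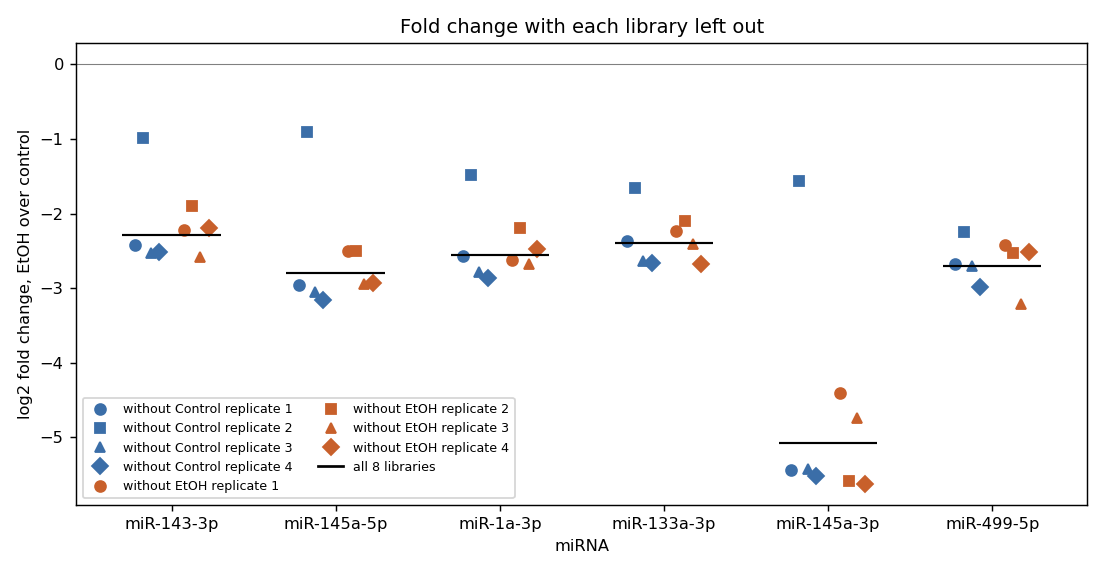
Log2 fold change, EtOH over control, of each tested muscle and stromal miRNA when 1 library is left out, with a bar at the value from all 8 libraries. Leaving out control replicate 2 puts every miRNA closest to 0, from -0.91 for miR-145a-5p to -2.24 for miR-499-5p, and all values stay below 0.

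Set against the miRNA pool alone, the 2 groups differed less. Together the 16 rows held 3.37%, 13.3%, 1.11% and 4.54% of all miRNA counts in control replicates 1 to 4 and 3.72%, 2.47%, 3.93% and 3.90% in EtOH replicates 1 to 4. The highest and the lowest share were both in controls, and the widest Wilson 95% interval, that of EtOH replicate 2, ran from 2.40% to 2.54% and covers counting error only. The mean share was 5.57% ± 5.33 in controls and 3.50% ± 0.696 in EtOH libraries (SD, n = 4 each). Without control replicate 2 the control mean was 3.01% ± 1.74 (SD, n = 3), below that of the EtOH libraries. When miRNA features were fitted by themselves, so that each was compared with the other miRNAs, the median log2 fold change of the 6 was -0.86, beside -0.09 for the 241 miRNA features tested, and 0 of 6 passed, beside 0.00% of miRNA features called lower. The lowest adjusted p was that of miR-499-5p, at -1.31 (SE 0.34, edgeR adjusted p = 0.224), and the most negative value that of miR-145a-3p, at -2.73 (SE 2.16, adjusted p = 0.763), which rests on its zeros. With control replicate 2 also left out, a fit added after the values were seen, the median was -0.13, beside 0.01. miR-143-3p then stood at 0.18 (SE 0.50), miR-145a-5p at 0.40 (SE 0.51), miR-1a-3p at -0.25 (SE 0.48), miR-133a-3p at -0.33 (SE 0.54) and miR-499-5p at -1.09 (SE 0.40, edgeR adjusted p = 0.457). miR-143-3p and miR-145a-5p thus changed sign, and adjusted p ran from 0.457 to 0.999 over the 6.

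Ratios between these miRNAs inside a library do not depend on scaling, and 4 were compared. miR-143-3p to miR-145a-5p, which come from the same transcript, was 4.29, 3.15, 5.35 and 6.84 in the controls and 8.03, 3.15, 6.54 and 3.34 in EtOH libraries. The groups overlapped, and the mean log2 ratio was 2.24 ± 0.475 and 2.28 ± 0.681 (SD, n = 4 each; two-sided exact permutation p = 0.914). miR-1a-3p to miR-133a-3p, likewise made together, was 2.25, 3.11, 2.02 and 2.16 in the controls and 3.58, 2.24, 3.09 and 1.38 in EtOH libraries. Its mean log2 ratio was 1.23 ± 0.279 and 1.27 ± 0.608 (SD, n = 4 each; exact permutation p = 0.886). The EtOH libraries held both the highest and the lowest value.

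The ratio of miR-1a-3p to miR-143-3p, striated to smooth, was 0.191, 0.101, 0.150 and 0.0781 in the controls and 0.110, 0.0918, 0.0706 and 0.0931 in EtOH libraries. The mean log2 ratio was -3.03 ± 0.576 and -3.47 ± 0.265 (SD, n = 4 each; exact permutation p = 0.229). For the 5p to 3p arm of miR-145a, which rests on the zeros above, the difference of mean log2 ratios was 0.69 (exact permutation p = 0.657). All 4 had an adjusted p of 0.914, and the smallest p that the 70 splits allow is 0.0286.

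**Figure D4:**
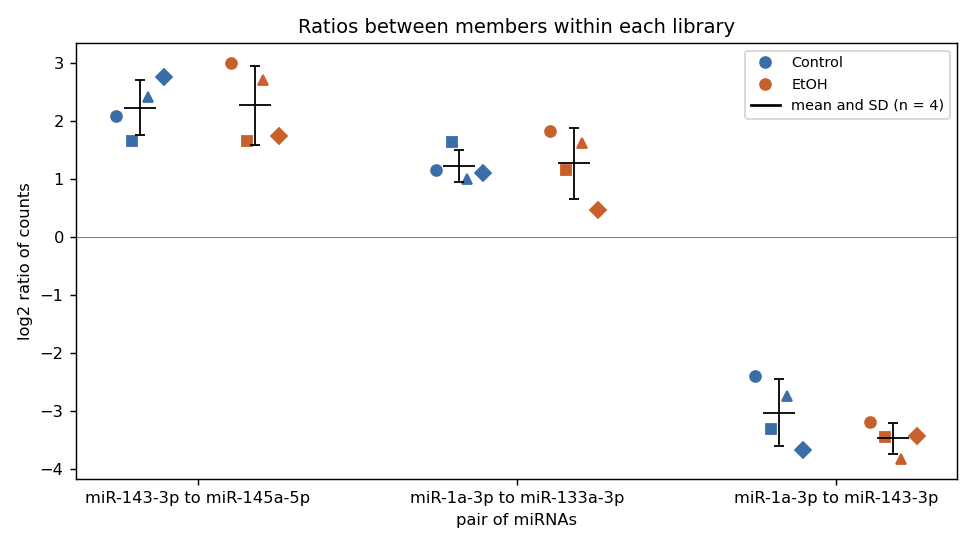
Log2 ratio of counts of 2 muscle and stromal miRNAs in each of the 4 control and 4 EtOH libraries, with the mean and SD per group; the ratio of the 2 arms of miR-145a, which rests on libraries at 0, is left out. The groups overlap for all 3 pairs, with means of 2.24 and 2.28 for miR-143-3p to miR-145a-5p.

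Other RNAs of muscle and stroma were set beside these miRNAs, from lists of markers. In bulk RNA, fewer cells of a type and less RNA per cell cannot be told apart. The summed counts of miR-143 and miR-145 were 5106, 33404, 1653 and 6929 CPM per library total in the controls and 3198, 1561, 3683 and 2421 in EtOH libraries, and those of miR-1, miR-133 and miR-499 were 1149.7, 3391, 318 and 695 and 401, 158, 301 and 301. Transcripts of smooth muscle, which encode contractile proteins such as Myh11 and the kinase Mylk (2 genes chosen after their values were seen), summed to 72.1, 179, 35.7 and 46.3 CPM per library total in the controls and 41.1, 83.4, 53.2 and 97.3 in EtOH libraries. Control replicate 2 was highest here as well, at 3.86 times the median of the other controls, and it was the highest of all 8 libraries for 13 of 13 smooth muscle genes by CPM per library total. The share of all genes highest in that library was not counted. Some of the 13 were scarce there, such as Myocd with 6 counts and Lmod1 with 12. Myh11 had 19.5, 52.5, 10.8 and 10.5 CPM per library total in the controls and 6.77, 18.3, 14.7 and 17.7 in EtOH libraries. None of the 13 was at 0 in all libraries. Between the groups, the list summed to a mean of 83.2 ± 65.5 CPM per library total in controls and 68.8 ± 26.1 in EtOH libraries (SD, n = 4 each). The 2 tested exons, both of Mylk, had log2 fold changes of -0.12 and 0.09 (edgeR adjusted p = 0.915 and 0.938). Mylk had 14.9, 38.5, 11.1 and 17.0 CPM per library total in the controls and 18.6, 33.4, 15.9 and 37.4 in EtOH libraries, unlike Myh11. These exons of 1 gene do not stand for the list, and its other genes were not tested. The miR-143 and miR-145 arms had negative values. Exon features at large had a median of 0.70. The part of smooth muscle RNA in the miRNA values was not tested.

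The sum of striated muscle transcripts did not follow miR-1 and miR-133 from library to library, but it was shallow, with 59 to 176 counts per library. All genes of the list summed to 40.4, 27.8, 14.97 and 12.4 CPM per library total in the controls and 18.5, 39.1, 12.5 and 28.4 in EtOH libraries, with control replicate 1 highest. The titin gene Ttn, named after its values were seen, gave 115, 70, 47 and 36 of the 176, 117, 65 and 59 counts in control replicates 1 to 4. In EtOH replicate 2 Acta1 gave 62 of 122. The sum thus rests largely on these genes and does not stand for the list. Of the 23 genes, 4 were highest in control replicate 2 and 1, the troponin gene Tnni2, was at 0 in all 8 libraries. Only an exon of Acta1, skeletal muscle actin, was tested, at 1.74 ± 1.04 CPM in controls and 7.09 ± 7.36 in EtOH libraries (SD, n = 4 per group; log2 fold change 1.98, edgeR adjusted p = 0.102). Fibroblast transcripts, collagens among them, ran from 43.4 to 81.3 CPM per library total in the controls and 27.8 to 93.4 in EtOH libraries, with control replicate 2 at 1.42 times the median of the other controls. Transcripts of red blood cells, with 2 of 7 genes at 0 throughout, ran from 15.6 to 32.5 CPM per library total in the controls and from 1.62 to 17.7 in EtOH libraries, those of endothelium from 6.50 to 8.79 and from 2.25 to 6.46, and those of leukocytes from 12.4 to 26.8 and from 10.6 to 48.1.

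**Figure D5:**
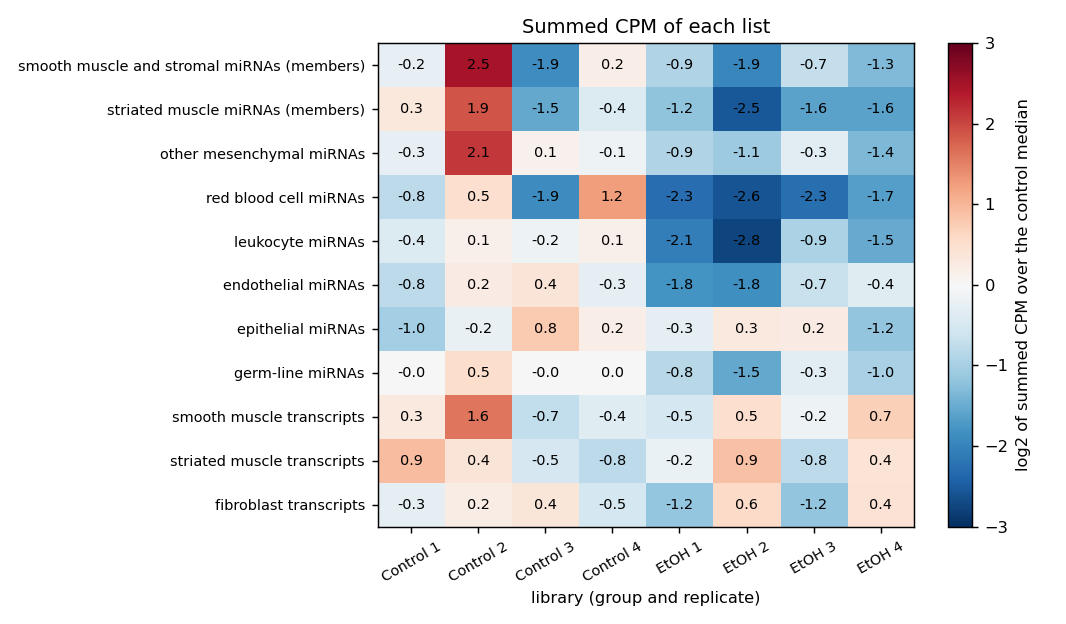
Summed CPM per library total of each marker list in the 8 libraries, as log2 over the median of the 4 controls (colour and printed value). The 2 rows of muscle and stromal miRNAs, the other mesenchymal miRNAs and the smooth muscle transcripts share their highest value in control replicate 2, at 2.5, 1.9, 2.1 and 1.6, while striated muscle transcripts are highest in control replicate 1.

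Among other miRNAs, those of mesenchymal cells, germ line and leukocytes also had their highest sum in control replicate 2. Germ-line miRNAs had 16787 CPM per library total there and 11563 to 11658 in the other controls, 1.44 times their median, and leukocyte miRNAs 416 there and 283 to 415 in the other controls, 1.24 times their median. Both sums include listed zeros. miR-142a-5p, the most abundant tested leukocyte feature, was at 0 in control replicate 2 and at 202, 251 and 279 CPM in control replicates 1, 3 and 4. miR-146a-5p had 186 CPM in control replicate 2 and 31.1, 41.6 and 60.6 in the same others. The leukocyte ratio thus leaves out that list's largest member in control replicate 2. miR-34b-3p of the germ line was at 0 in control replicate 1. The list of miR-21a, miR-22, miR-199, miR-214, miR-221 and miR-222 summed to 4518, 23634, 5899 and 4886 CPM per library total in the controls and 2872, 2549.7, 4335 and 2114 in EtOH libraries, and control replicate 2 was at 4.84 times the median of the other controls. miR-199a-3p, abundant in fibroblasts, had 10259.9 CPM in control replicate 2 and 906, 1315 and 1128 in the other controls, with a log2 fold change of -2.81 (SE 0.75, edgeR adjusted p = 0.0525). Of the 8 tested features of that list, 7 were lower at an unadjusted p below 0.05 and 0 at an adjusted p, and for this and the next lists the share of all tested miRNA features lower at an unadjusted p was 66.7%, and of all features 9.15%. Red blood cell miRNAs, led by miR-451a, peaked in control replicate 4 at 1891 CPM per library total, with 216 in control replicate 3, and 5 of 5 were lower at an unadjusted p and 0 at an adjusted p. Epithelial miRNAs of the miR-200 family and its like were highest in control replicate 3, at 4459 CPM per library total, the library in which miR-143, miR-145, miR-1 and miR-133 were lowest of the controls, and 0 of 6 were lower even at an unadjusted p. Their median log2 fold change was -0.52. For leukocyte, endothelial and germ-line miRNAs the medians were -1.73, -1.22 and -1.76, and 4 of 6, 2 of 2 and 13 of 16 were lower at an unadjusted p, with 0 in each at an adjusted p, beside the same 66.7%. How these lists bear on the muscle and stromal miRNAs was not tested.

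By likeness of profile over the 8 libraries, measured as the root mean square difference in centred log2 CPM, the tested miRNAs outside the group nearest to miR-143-3p were miR-27a-3p (0.451), miR-224-5p (0.542), let-7i-5p (0.569), miR-374b-5p (0.576) and miR-218-5p (0.609). Inside the group miR-1a-3p was at 0.447, miR-145a-5p at 0.509, miR-133a-3p at 0.641, miR-499-5p at 0.951 and miR-145a-3p at 2.17, and the median over the tested miRNA features outside the group was 1.06. The nearest to miR-1a-3p were miR-881-3p (0.453), miR-224-5p (0.473), miR-374b-5p (0.499), miR-190b-5p (0.503) and miR-467e-5p (0.504), with miR-133a-3p at 0.409. The partners made from a common transcript were thus among the closest profiles, and the closest of all to miR-143-3p was miR-1a-3p. These values share libraries, depth and the peak of control replicate 2, and are a description. For miR-27a-3p that peak was 114 CPM, against 17.1, 11.5 and 19.6 in the other controls.

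Host genes were read from fragments of their exons and introns, and known targets from fragments of exons alone. Of 10 names for host transcripts, 5 had rows, and apart from Mib1, which hosts a copy of miR-1 and miR-133 on the other strand, each was below 3 CPM per library total in every library. Myh7b, the host of miR-499, had 0.475 to 1.38 CPM per library total in controls and 0.321 to 0.877 in EtOH libraries, and Carmn, the host of miR-143 and miR-145, 0.921 to 2.37 and 0.642 to 2.46. An exon of Mib1, a ubiquitin ligase of Notch signalling, had 1.48 ± 0.714 CPM in controls and 5.58 ± 3.98 in EtOH libraries (SD, n = 4 per group; log2 fold change 1.84, edgeR adjusted p = 0.0657). Of 20 textbook targets, such as Hand2 and Hdac4 for miR-1, Srf, Rhoa and Cdc42 for miR-133, Pdcd4 and Sox6 for miR-499 and Klf4 and Klf5 for miR-143 and miR-145, 8 exon features were tested. At an adjusted p 0 passed in either direction, beside 0.0217% of exon features higher and 0.00% lower, and at an unadjusted p 3 were higher and 0 lower, beside 36.8% and 3.35% of exon features. Their median log2 fold change was 0.45, below the 0.70 of all 4600 exon features. The most abundant was an exon of Rhoa, a small GTPase of the cytoskeleton, with 5.39 ± 1.197 CPM in controls and 18.8 ± 12.4 in EtOH libraries (SD, n = 4 per group; log2 fold change 1.79, edgeR adjusted p = 0.0547). An exon of Kcnj2, a potassium channel, had 11.8 ± 6.73 and 7.37 ± 2.24 CPM (SD, n = 4 per group; log2 fold change -0.66, adjusted p = 0.385). EtOH replicate 2, the library with the most epididymal transcript counts, was the highest for 16 of the 20 target genes by CPM per library total. It was also the highest for 11 of 15 epididymal and 8 of 11 leukocyte genes, and for 0 of 13 smooth muscle and 0 of 15 late sperm precursor genes. The share of all genes highest in that library was not counted, so the 16 are no result about targets.

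The 10 scarce rows gave no test. miR-133a-5p had 4, 14, 1 and 5 counts in the controls and 4, 0, 3 and 2 in EtOH libraries, and miR-133b-3p, whose sequence is above, 3, 15, 1 and 3 and 0, 0, 2 and 3. The mir-143 precursor had 0, 13, 1 and 0 and 2, 1, 0 and 0. In each of these 3 the highest count was in control replicate 2. The arms miR-1b-3p, miR-1b-5p and miR-1a-1-5p and the precursors mir-1b, mir-133a-1, mir-133a-2 and mir-499 had at most 4 counts in any library.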

How the data were processed

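RNA was extracted with guanidinium thiocyanate and a reducing agent and only the first read was used, per the labels' protocols, and cutadapt removed the adapters, per the submitters' processing notes. The deposited values are whole-number counts per annotated feature with no normalization, and each library's counts were taken as the authors gave them. None of the sources used here names the aligner, genome build, annotation or treatment of multi-mapping reads. Groups follow the treatment label, and replicate numbers are in accession order.

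The whole table was fitted at once in edgeR 4.0.16 under R 4.3.3: filterByExpr (minimum count 10, minimum total 15), TMM scaling and the quasi-likelihood F test, with Benjamini-Hochberg adjustment over 10234 features and a threshold of 0.05. Fold changes are EtOH over control. Sums over lists or genes are per library total. Ratios used log2 of counts plus 0.5 and an exact permutation test over 70 splits. Intervals and floors (3 counts) cover counting error only. Alternatives were other size factors, library size alone, miRNA features alone, 2 other filters, DESeq2 1.42.0, limma 3.58.1 voom, each library left out, either identifier form alone and a pseudocount of 5, and 1 fit was added after the values were seen. Scripts were tested on simulated data. The miRNAs and lists were chosen with earlier results of these data known. Rows with a mean count of at least 10 are given by library, at most 2 features of each marker list are named by abundance, and the 5 nearest profiles by likeness. Leukocyte, endothelial and red blood cell transcript lists were also summed.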

Additional observations from a re-analysis of the deposited data

Results flagged for a closer look

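Of 22 sets of 4 values examined (7 abundances and 4 ratios in each group), a single library stood apart from the other 3 in 3, by the ratio of its gap to the whole range. Chance alone gives about 1 in 20 for separate sets of normally distributed values. These sets share miRNAs and CPM are skewed, so that rate is no measure of chance here. All 3 concern control replicate 2. It had 10338 CPM of miR-145a-5p, with a gap of 0.921 of the range, 180.4 CPM of miR-145a-3p, with a gap of 0.940 of the range, and 36795 CPM per library total over all 16 muscle and stromal rows, with a gap of 0.838 of the range. The hairpin class is part of the whole-table fit but outside the rule. Among its rows with the names used here, mir-143 had the most counts. It had 2, 22, 3 and 2 in the controls and 4, 3, 4 and 0 in EtOH libraries, again highest in control replicate 2. The mir-1b hairpin had 4 counts in EtOH replicate 4 and 2 in EtOH replicate 3, and 0 in every control. The same counts as for the mir-1b hairpin stand in the miRNA class under the name mir-1b.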

How the results depend on the processing

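No paired analysis was possible because the labels carry no replicate numbers shared between the groups. Each of the 6 tested miRNAs was lower in EtOH libraries in every fit of the whole table and in the fit of miRNAs alone, and none was called higher in any fit; with miRNAs alone and control replicate 2 left out, miR-143-3p was at 0.18, miR-145a-5p at 0.40 and miR-145a-3p at 0.0031. The number past the threshold was 0 with all libraries, 2 without a filter (miR-499-5p and miR-145a-3p, beside 0.0203% of features), 5 in DESeq2, 2 with EtOH replicates 1 and 2 alone (miR-133a-3p and miR-499-5p, beside 2.69%), and 0 to 5 with each library left out. The median of the 6 moved from -2.63 to -0.86 for miRNAs alone, to -0.13 for those without control replicate 2, to -1.46 in limma voom, and between -2.92 and -1.53 with each library left out. With each library left out, the difference in log2 ratio ran from -0.20 to 0.25 for miR-143-3p to miR-145a-5p, from -0.15 to 0.31 for miR-1a-3p to miR-133a-3p, from -0.41 to 1.99 for the arms of miR-145a and from -0.66 to -0.23 for miR-1a-3p to miR-143-3p, which alone kept its sign. The median of smooth muscle transcripts, which rests on 2 exons, went from -0.02 to 0.29 by library size alone and to 0.31 without control replicate 2. That of fibroblast transcripts went from -0.22 to 0.043 by library size alone. Without control replicate 2 the median of miR-143 and miR-145 arms was -0.99 and that of target exons 1.14. The cause of these shifts was not tested. By library size alone the median of all features was 0.18, against -0.09. The scarce rows, with 15 counts at most, are too shallow for any comparison.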
